A study of Arabidopsis thaliana with 12 samples.

Results

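The genotype-by-cellotriose interaction asks, gene by gene, whether the response of Arabidopsis thaliana roots to cellotriose (CT) depends on CORK1. CT is a short chain of β-1,4-linked glucose units, a breakdown product of cellulose, and CORK1 encodes a receptor-like kinase whose outer part combines leucine-rich repeats (LRR) with malectin. All 4 groups of the RNA-seq series entered, with 3 libraries each and 12 in all: seedlings homozygous for the T-DNA insertion cork1-2 (HO) treated with CT, HO treated with water, wild-type segregants of the same cross (SWT) treated with CT, and SWT treated with water. The insertion line had been crossed to a wild type that expresses the calcium reporter aequorin, so that HO and SWT are segregants of that cross, and HO represents a single insertion allele. Both treatments were given to roots for 1 h, CT at 10 µM, and each library pooled the roots of 16 seedlings. Of the 23106 genes in the deposited tables, 23103 had a p-value in each genotype and make up the genes described here. For each gene the CT response of HO was subtracted from that of SWT on the log2 scale, and the standard error (SE) of this difference is the square root of the summed squared SEs of the 2 responses. A positive difference therefore means that CT moved the gene further upwards, or less far downwards, in SWT than in HO. Differences were called at an adjusted p below 0.05 (z test, Benjamini-Hochberg over 23103 genes).

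Plants read fragments of their own cell wall as signs of damage. A receptor at the plasma membrane passes the signal to calcium channels, NADPH oxidases and kinase cascades, and WRKY and ERF transcription factors then change the expression of defence genes. In Brassicaceae these defences draw on tryptophan, the precursor of indole glucosinolates and of the phytoalexin camalexin, on phenylalanine, the precursor of lignin and coumarins, and on the hormones jasmonate, salicylate and ethylene. Roots also adjust their uptake of iron, nitrate and sulfate, and sulfate is needed to build glucosinolates.

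CORK1 itself, AT1G56145 on the minus strand (chromosome 1 from 21008057 to 21014095), averaged 302 with CT and 255 in water in HO, against 1999 with CT and 1413 in water in SWT. These are recovered group means of normalized read counts, since the tables hold no value per library, and the depth of each library is unknown from them. The CT response of CORK1 was 0.24 (SE 0.16) in HO and 0.50 (SE 0.15) in SWT, and the difference of 0.26 (SE 0.22, adjusted p 0.772 by the z test) did not pass. All 15 root cell-type markers of the fixed list were measured, with mean counts from 47.2 to 19043, and none had a called difference. The summed root markers stood at 34778 with CT and 34637 in water in HO, against 31590 with CT and 31387 in water in SWT. Of 13 markers of green shoot tissue 11 were measured, with means between 2.32 and 2873, and their sum was 8022 with CT and 8522 in water in HO, against 4789 with CT and 7701 in water in SWT. For 1 of these 11, the light-harvesting gene LHCB3, the difference was called. The SWT libraries with CT were thus the group lowest in green-tissue transcripts, and the part of this in the results below was not tested. In bulk roots, fewer cells of a type and less RNA per cell cannot be told apart.

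CT responses differed between the genotypes for 913 of 23103 genes (3.95%). The SWT response was the more positive for 764 genes (3.31%) and the more negative for 149 (0.645%). At an unadjusted p below 0.05 the responses of 2759 genes differed. Among the 764 genes the median response was 0.026 in HO and 1.23 in SWT, with a median difference of 1.17 and quartiles of 0.85 and 1.75. Among the 149 genes the median response was 0.10 in HO and -0.87 in SWT, with a median difference of -0.97. Over all 23103 genes the medians were -0.0073 in HO, -0.011 in SWT and -0.0043 for the difference. A log2 difference of at least 1 was reached by 475 of the 764 genes and by 69 of the 149, and one of at least 2 by 143 and 14. Calls were spread over the genome, with 3.91%, 3.81%, 4.01%, 4.36% and 3.86% of the genes on chromosomes 1 to 5.

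Most of the called differences joined a response in SWT with none detected in HO. Of the 913 genes, 848 had an unadjusted Wald p below 0.05 in SWT and not in HO. By the same unadjusted threshold a further 39 passed in both genotypes with the same direction and less in HO, 21 with opposite directions, and 5 in HO only. Genes without a response can also pass such a threshold, and the HO value enters the difference. Membership of these classes therefore does not establish a response in HO. The reference distribution sets the size of this count. With a t distribution on 8 degrees of freedom, the residual degrees of 12 libraries in 4 groups, 89 genes passed, 88 with the more positive response in SWT and 1 with the more negative. All 89 were among the 913, which had to be so, because the t distribution gives a larger p to the same statistic. In the gene lists described below, the calls that passed in this way were 7 of tryptophan synthesis, 3 of the shikimate pathway, 5 each of indole glucosinolates and sulfate assimilation, 4 of phenylpropanoids, and SOT17, OPR3, JAZ6, ABR1, SERK4, CML42 and GSTF10.

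**Figure D1:**
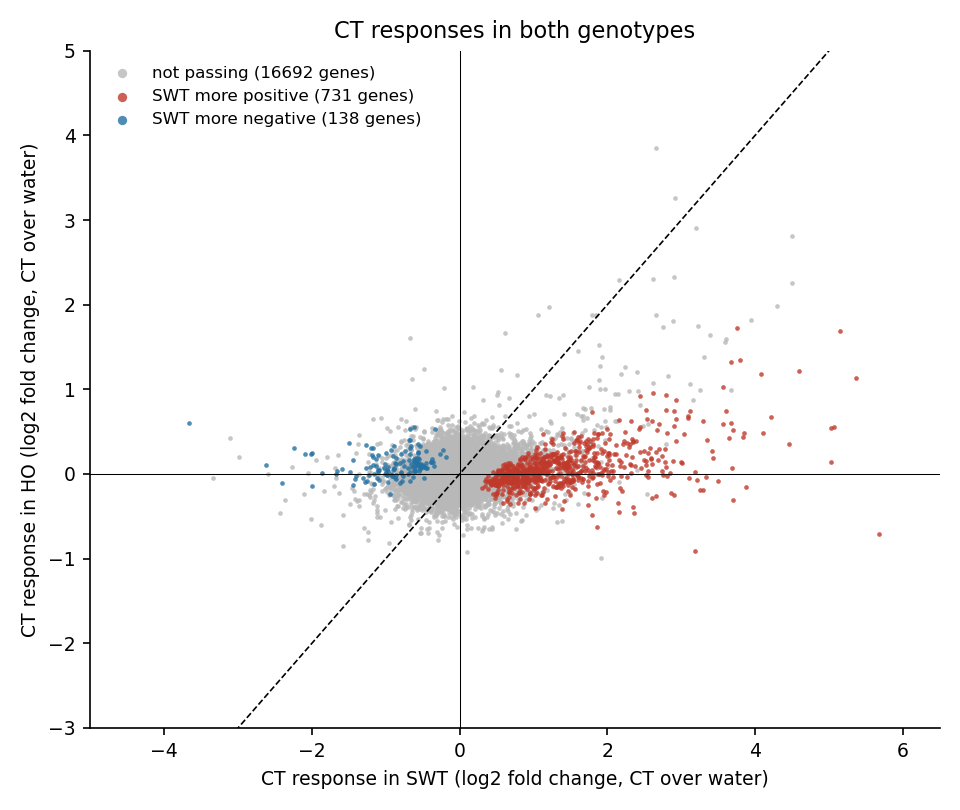
CT response in HO (vertical axis) against CT response in SWT (horizontal axis), both as log2 fold change of CT over water, for the 17561 genes with a mean normalized count of at least 50; each point is a gene. The 731 genes with a more positive SWT response (red) lie along the horizontal axis to the right and the 138 with a more negative one (blue) to the left, away from the dashed line of equal responses.

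How far a difference could be seen depended on the level of the gene. The median SE of the difference was 1.99 for genes with a mean below 10, 0.68 from 10 to 50, 0.30 from 50 to 500, 0.19 from 500 to 5000 and 0.21 above. With the threshold reached at a z of 3.09, a gene of median SE needed a log2 difference of 6.15, 2.11, 0.93, 0.60 and 0.65 in these classes, and 0.328%, 1.37%, 3.35%, 6.20% and 11.8% of the genes were called. Below a mean of 10 a lack of difference was mostly not detectable at this depth.

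Several of the smallest p-values belonged to tryptophan synthesis. The gene of smallest p was AT1G15625 (chromosome 1 from 5374755 to 5375910), annotated as an E3 ubiquitin-protein ligase. It averaged 45.6 with CT and 41.6 in water in HO, against 1813 with CT and 55.7 in water in SWT, with a difference of 4.89 (SE 0.37, adjusted p 2.52e-35 by the z test). The β subunit of anthranilate synthase is encoded by ASB1, AT1G25220 (chromosome 1 from 8836835 to 8839609), which averaged 745 with CT and 655 in water in HO, against 8174 with CT and 760.1 in water in SWT. Its difference was 3.24 (SE 0.25, adjusted p 3.80e-35 by the z test). ASB1 is uncertain, because 42.1% of the 50-base windows of its exons occurred elsewhere in the genome and its exons overlap other annotated genes. IGPS (AT2G04400, chromosome 2 from 1531148 to 1533737), for indole-3-glycerol phosphate synthase, averaged 1048 with CT and 1042 in water in HO, against 8544 with CT and 1191 in water in SWT, with a difference of 2.83 (SE 0.24, adjusted p 3.47e-29 by the z test). LOX1 (AT1G55020), a lipoxygenase, had a smaller difference of 1.74 (SE 0.16) at a high level, 8153 with CT and 7444 in water in HO, against 33153 with CT and 9057 in water in SWT. The remaining 6 of the 10 genes of smallest p with a mean of at least 50 were ASA1, AKN2, AT4G01700 (a chitinase family gene), AT3G15356 (a legume lectin family gene), AT2G35390 and PRS3, with differences from 1.72 for PRS3 to 3.57 for AT3G15356. PRS3 makes phosphoribosyl pyrophosphate, a substrate of tryptophan synthesis, and AT2G35390 is annotated as a phosphoribosyltransferase family gene. In all 10 genes the means of HO with CT, HO in water and SWT in water lay close together and SWT with CT stood apart.

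The 250 bases before the annotated gene starts were searched for binding motifs known from plant promoters. This was done for genes with a more positive or a more negative SWT response and for all tested nuclear genes. The W box, bound by WRKY factors and searched as TTGACC or TTGACT on either strand, was found in 48.3% of the 764 genes (95% Wilson interval 44.8 to 51.8%), in 26.8% of the 149 genes with a more negative SWT response (20.4 to 34.5%) and in 28.6% of the 22980 tested nuclear genes with a complete window. Sequences from the RefSeq TAIR10.1 assembly are shown for 3 tryptophan genes of the first kind and for CYP71B26, the gene of smallest p of the second kind, in lower case with every W box in capitals, 5′ to 3′ on the strand of the gene. CYP71B26 has no W box in its window, ASB1 has 3 and the other genes have 1 each. These windows are examples, and other genes of smallest p differ from them. LOX1, AKN2 and PRS3 of the first kind have no W box, while AT5G19970 and AT2G29320 of the second kind do.
ASB1, chr1:8839610-8839859, minus strand: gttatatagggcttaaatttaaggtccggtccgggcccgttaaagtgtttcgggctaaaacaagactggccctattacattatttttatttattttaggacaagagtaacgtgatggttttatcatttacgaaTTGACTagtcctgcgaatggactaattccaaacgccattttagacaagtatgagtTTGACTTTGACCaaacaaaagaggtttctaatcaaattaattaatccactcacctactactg
ASA1, chr5:1722934-1723183, minus strand: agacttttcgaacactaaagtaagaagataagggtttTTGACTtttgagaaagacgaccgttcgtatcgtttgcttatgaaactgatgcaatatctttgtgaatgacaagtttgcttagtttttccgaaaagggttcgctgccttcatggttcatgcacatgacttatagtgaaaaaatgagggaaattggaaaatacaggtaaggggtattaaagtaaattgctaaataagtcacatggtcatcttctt
IGPS, chr2:1530898-1531147, plus strand: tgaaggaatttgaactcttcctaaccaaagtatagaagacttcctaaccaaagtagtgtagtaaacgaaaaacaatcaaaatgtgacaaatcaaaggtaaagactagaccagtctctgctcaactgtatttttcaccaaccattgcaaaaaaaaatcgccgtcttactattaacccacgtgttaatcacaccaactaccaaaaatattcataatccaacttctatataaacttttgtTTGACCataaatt
CYP71B26, chr3:9634823-9635072, minus strand: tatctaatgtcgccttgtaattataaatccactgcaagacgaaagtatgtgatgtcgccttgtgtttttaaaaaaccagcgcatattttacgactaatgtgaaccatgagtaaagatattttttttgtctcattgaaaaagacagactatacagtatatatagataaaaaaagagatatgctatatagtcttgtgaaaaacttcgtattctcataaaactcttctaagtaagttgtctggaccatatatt
In ASB1 the W boxes begin 117, 62 and 56 bases before the start, in ASA1 213 and in IGPS 13 bases before it. For the other motifs the intervals of the 764 genes and of all genes overlapped at this length. The GCC box (GCCGCC) was found in 2.49% of the 764 genes, 1.342% of the 149 and 1.96% of all, the G box (CACGTG) in 7.59%, 6.71% and 6.99%, and the core of the CGCG box (CGCGT) in 8.90%, 8.72% and 7.35%. The as-1 core (TGACG) was found in 21.1%, 21.5% and 19.1%, the AC element (ACCTACC) in 1.96%, 1.342% and 1.201%, and the evening element in 5.24%, 4.70% and 4.77%. No searched motif contains another, although matches may overlap at their ends. With 150 bases the W box shares were 37.0%, 16.8% and 19.5%, and the GCC box was found in 2.49% of the 764 genes (1.60 to 3.85%) against 1.15% of all (1.02 to 1.295%), intervals that did not overlap. A match describes letters in a window and is not a binding site.

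**Figure D2:**
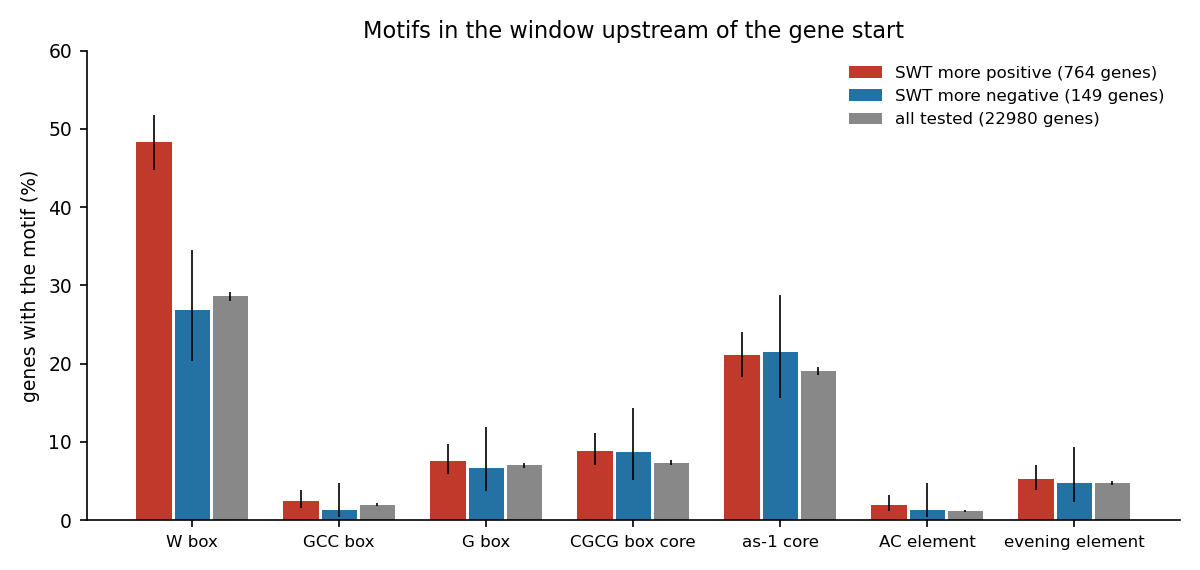
Share of genes (%) with each motif on either strand in the 250 bases before the gene start, for the 764 genes with a more positive SWT response, the 149 with a more negative one and all 22980 tested genes; bars are shares and lines 95% Wilson intervals. The W box share of the 764 genes, 48.3%, lies above the 28.6% of all genes, while the other motifs have overlapping intervals for the 764 and the 149 genes.

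Tryptophan synthesis and the shikimate pathway had the largest shares of called genes among the lists. The 42 lists were chosen with earlier results of these data known, so that their shares are descriptions and not independent support. Each count of called list members is to be read against the 3.95% called among all genes, a share at which a short list holds few or no calls. The share called rose with the level of a gene, to 6.20% at means of 500 to 5000 and 11.8% above. For lists of abundant genes 3.95% is therefore a low reference. The shikimate pathway makes chorismate, and 4 of its 6 measured genes had a more positive SWT response (median difference 1.08, against -0.0043 over all genes). DHS1, the entry enzyme, averaged 4114 with CT and 4232 in water in HO, against 23799 with CT and 4048 in water in SWT, with a difference of 2.596 (SE 0.28). MEE32, the dehydratase-dehydrogenase, had 1.17 (SE 0.18), and EMB1144, chorismate synthase, 1.75 (SE 0.23). From chorismate to tryptophan, 8 of 10 genes were called in this direction (median 2.41). ASA1 (AT5G05730), the α subunit of anthranilate synthase, averaged 873 with CT and 647 in water in HO, against 12551 with CT and 883 in water in SWT. Its responses were 0.43 (SE 0.22) in HO and 3.83 (SE 0.22) in SWT, with a difference of 3.399 (SE 0.31, adjusted p 4.99e-25 by the z test). The HO response of ASA1 had an unadjusted Wald p of 0.0474 and an adjusted one of 0.9999, so that a response in HO was not established. Its HO mean with CT was close to that of SWT in water. PAT1, IGPS, TSA1, TSB1 and TSB2 cover the later steps, and their differences ran from 2.27 for PAT1 to 2.83 for IGPS. The phosphoribosylanthranilate isomerase genes were weaker, with 1.04 for PAI2, which was called, and 0.01 for PAI1 and 0.33 for PAI3, which were not, and these near-identical copies may share reads. From chorismate to phenylalanine and tyrosine only ADT4 of 9 genes was called, at 1.03 (SE 0.19), and the median of that branch was 0.01. Its most abundant members without a call, ADT5 and PD1, had differences of 0.51 (95% interval 0.08 to 0.94) and 0.49 (95% interval 0.07 to 0.90), so that for these genes responses that differ by a log2 of 1 or more lie outside the interval. With the t distribution 7 of the 10 tryptophan genes, 3 of the 6 shikimate genes and 0 of the 9 genes of the other branch passed.

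Indole glucosinolates are made from tryptophan and stored as defence compounds. Of 20 measured genes for their synthesis and modification, 12 had a more positive SWT response and 0 a more negative one (median 1.64). MYB51, the transcription factor that activates this pathway, averaged 352 with CT and 233 in water in HO, against 4339.7 with CT and 341 in water in SWT. Its responses were 0.60 (SE 0.26) in HO and 3.67 (SE 0.25) in SWT, with a difference of 3.07 (SE 0.36, adjusted p 8.00e-15 by the z test). GGP1, which acts on the glutathione conjugate, had 2.02 (SE 0.21), and the sulfotransferase SOT16 2.53 (SE 0.28). Among genes without a call, the methyltransferase IGMT1 had 1.73 (95% interval 0.58 to 2.88) and CYP81F2, which modifies the indole ring, 2.03 (95% interval 0.63 to 3.44), and 10.4% of the 50-base windows of IGMT1 occurred elsewhere. PYK10, the main β-glucosidase of root endoplasmic reticulum bodies and the gene of highest mean in the tables, averaged 245386 with CT and 250491 in water in HO, against 172813 with CT and 231402 in water in SWT, and its difference of -0.39 (SE 0.19) was not called. Of 11 genes for aliphatic glucosinolates, made from methionine, only the sulfotransferase SOT17 was called, at 2.64 (SE 0.36), and the median was -0.30. The intervals of this group were wide: IMS2 had -0.33 (95% interval -1.72 to 1.06) at a mean of 4247, and CYP79F1, at a mean of 14.8, had -2.12 (95% interval -3.68 to -0.56) and an adjusted p of 0.135 by the z test.

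Sulfate assimilation supplies the sulfur of these compounds. Of 17 genes 8 had a more positive SWT response and 0 a more negative one (median 1.02). APS1, which activates sulfate, averaged 9467 with CT and 10019 in water in HO, against 31836 with CT and 9534 in water in SWT, with a difference of 1.82 (SE 0.21, adjusted p 8.00e-15 by the z test). The kinases that form the sulfate donor of sulfotransferases had 3.15 (SE 0.29) for AKN2 and 2.04 (SE 0.24) for APK1. APS3, the reductases APR1 and APR3, the sulfite reductase SIR and the root transporter SULTR1;2 were also called, between 0.91 for SIR and 2.04 for APS3. The sulfur-deficiency genes LSU1 and LSU2 were not called, with 1.38 (95% interval 0.10 to 2.66) for LSU1 and 1.15 (95% interval 0.41 to 1.90) for LSU2. With the t distribution 5 genes passed in each of the sulfate and the indole glucosinolate lists.

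The phenylpropanoid pathway, which leads from phenylalanine to lignin precursors and coumarins, had 12 of 19 genes with a more positive SWT response and 0 with a more negative one (median 1.06). 4CL1, which activates cinnamic acids, averaged 5313 with CT and 5195 in water in HO, against 24370.5 with CT and 5765 in water in SWT, with a difference of 2.05 (SE 0.27, adjusted p 7.43e-12 by the z test). HCT had 1.57 (SE 0.22) and CCoAOMT1, a methyltransferase of monolignol synthesis, 0.73 (SE 0.10), the last a small difference at a level of 19302 with CT and 18979 in water in HO, against 31419 with CT and 18656 in water in SWT. PAL1, PAL2, C4H and CAD5 were called as well, between 1.44 for PAL1 and 1.93 for PAL2. CCOAMT, a related methyltransferase gene, was not called in spite of a larger difference, 2.68 (95% interval 0.50 to 4.86), because its SE was large, and its means were 58 with CT and 29.2 in water in HO, against 649.7 with CT and 51.1 in water in SWT. AT3G13610, the feruloyl-CoA hydroxylase that opens the way to iron-mobilizing coumarins, had 1.44 (SE 0.25). Of 14 suberin genes 2 were called (14.3%, against 3.95% of all genes, median 0.41): GPAT7 with 1.17 (SE 0.33) and KCS20 with 0.68 (SE 0.20). RWP1 and CYP86A1, which act in suberin and are more abundant, had 0.48 (95% interval -0.06 to 1.02) and -0.13 (95% interval -0.73 to 0.47).

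**Figure D3:**
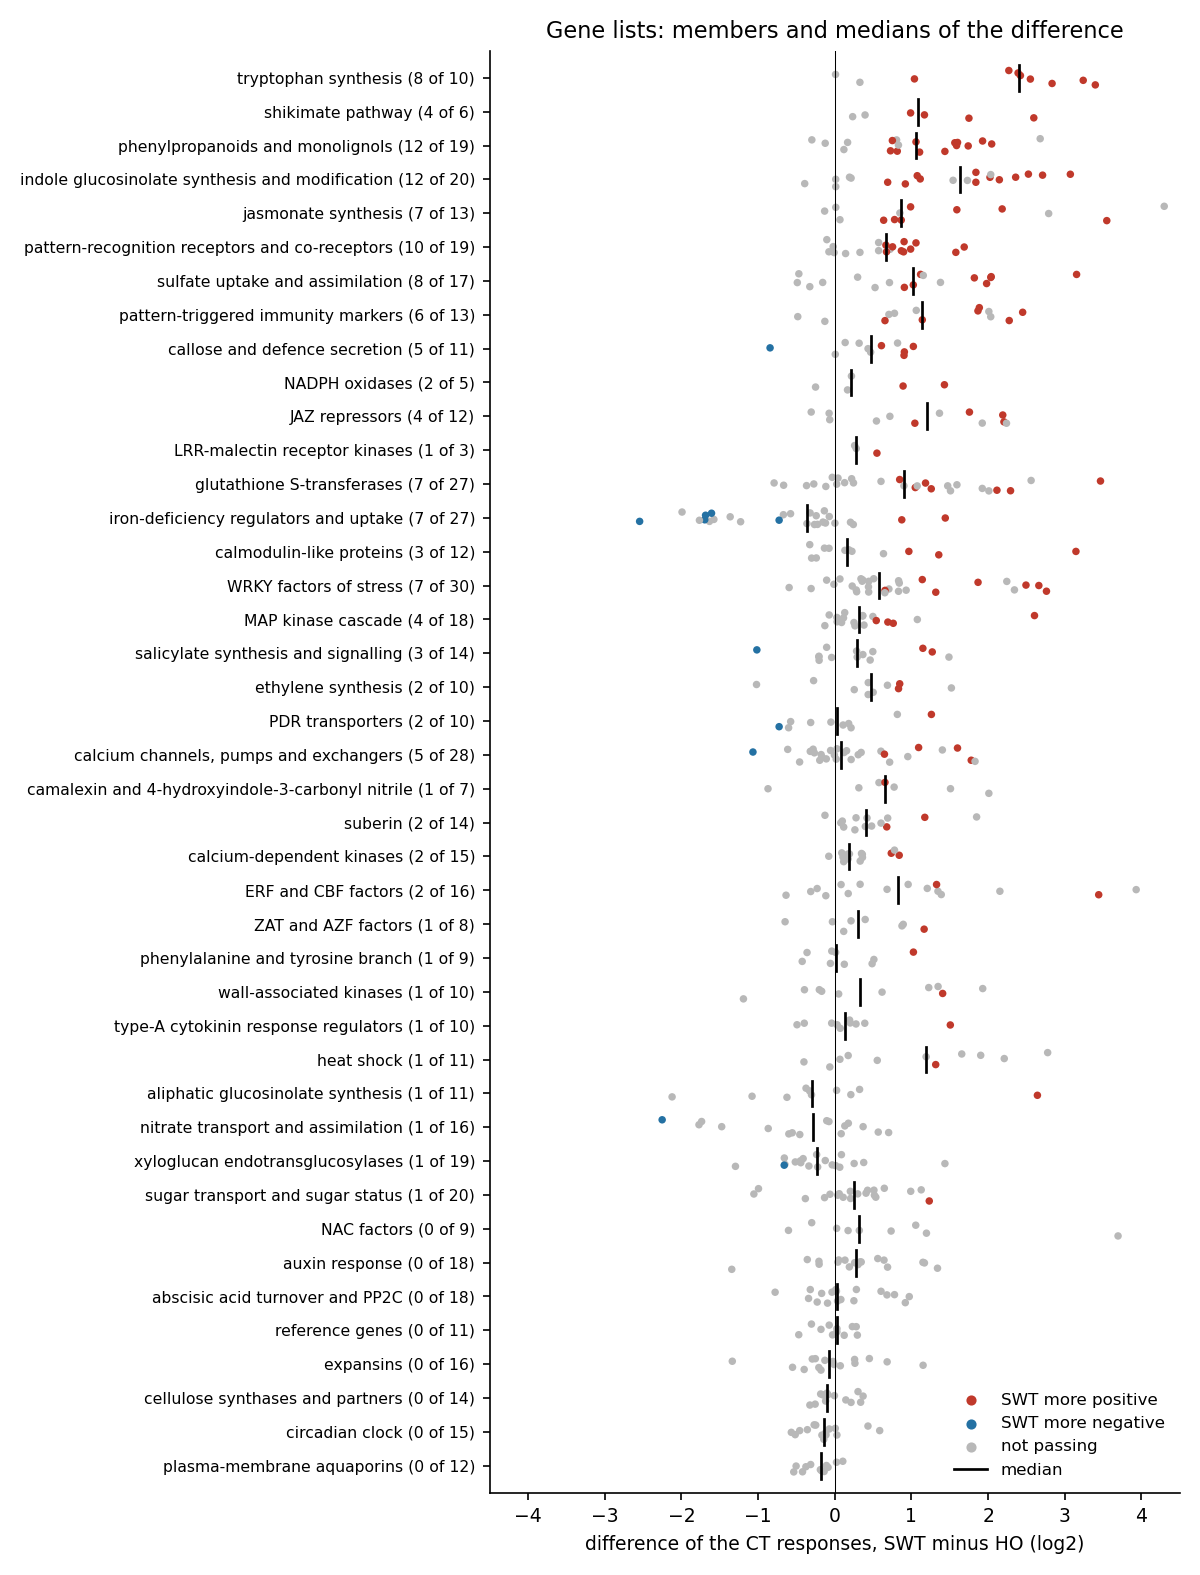
Difference of the CT responses, SWT minus HO (log2), for each measured member of the 42 gene lists; points are genes, coloured by call, black bars are list medians, and the counts in brackets are called members of measured members. Lists are ordered by the share called, from tryptophan synthesis with 8 of 10 at the top to lists with 0 called at the bottom; 1 gene, AOP3, lies outside the axis.

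Among the hormone lists, jasmonate synthesis had the largest share of called genes. Of 13 jasmonate synthesis genes 7 had a more positive SWT response (median 0.87). OPR3, the reductase of the peroxisomal branch, averaged 780.1 with CT and 834 in water in HO, against 2245 with CT and 796 in water in SWT, with a difference of 1.59 (SE 0.21, adjusted p 1.45e-11 by the z test). LOX4, a plastid lipoxygenase, had 2.18 (SE 0.42) and AOC3, an allene oxide cyclase, 0.99 (SE 0.25). The downstream members KAT2 and JAR1, a thiolase and the enzyme that conjugates jasmonate to isoleucine, had -0.13 (95% interval -0.47 to 0.20) and 0.07 (95% interval -0.20 to 0.34), both within a factor of 2 of equal responses. Of 12 JAZ repressors, themselves targets of jasmonate signalling, 4 were called (median 1.21), with 2.21 (SE 0.32) for JAZ6, 2.19 (SE 0.47) for TIFY7 and 1.76 (SE 0.31) for JAZ1. JAZ12 had -0.07 (95% interval -0.34 to 0.19) and JAZ3 0.54 (95% interval 0.02 to 1.07), and neither was called.

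Ethylene synthesis had 2 of 10 genes called (median 0.47): ACS6 with 0.85 (SE 0.24) and EFE, an ACC oxidase, with 0.83 (SE 0.19). In salicylate synthesis and signalling 2 of 14 genes were more positive in SWT and 1 more negative (median 0.29). EDS5, the transporter that exports the precursor from plastids, averaged 1038 with CT and 1117 in water in HO, against 1909 with CT and 926 in water in SWT, with a difference of 1.15 (SE 0.19). The hydroxylases that break salicylate down moved in opposite directions: AT4G10500 had 1.27 (SE 0.40) and DMR6 -1.02 (SE 0.18). NPR1 and PAD4, regulators of salicylate signalling, had 0.29 (95% interval -0.14 to 0.73) and 0.29 (95% interval -0.05 to 0.62). Abscisic acid turnover and its phosphatases (18 genes) and auxin response (18 genes) had 0 calls, against 3.95% of all genes, with medians of 0.03 and 0.28. CYP707A3, which breaks down abscisic acid, had the smallest p of its list with 0.92 (SE 0.31) and an adjusted p of 0.0709 by the z test, and BRU6, which conjugates auxin, 1.3403 (SE 0.44) with 0.0559. Of 10 type-A cytokinin response regulators, ARR7 alone was called (10%, against 3.95% of all genes), at 1.51 (SE 0.48). The list median was 0.13. For 7 of the others the 95% interval of the difference lay within -1 to 1.

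Perception and early signalling genes had moderate differences. Of 19 pattern-recognition receptors and co-receptors 10 had a more positive SWT response (median 0.68). SERK4, a co-receptor kinase, averaged 420.1 with CT and 421 in water in HO, against 1261 with CT and 423 in water in SWT, with a difference of 1.58 (SE 0.24, adjusted p 7.40e-09 by the z test), and 25.2% of its 50-base windows occurred elsewhere, which makes it uncertain. LRR XI-23 had 0.99 (SE 0.16) and CERK1, the chitin receptor kinase, 1.06 (SE 0.23). FER, a malectin-like receptor kinase of cell wall sensing, had 0.14 (95% interval -0.13 to 0.42). The list of LRR-malectin kinases held CORK1, AT3G14840 and RKF1 and is not the whole group. AT3G14840 was called with 0.55 (SE 0.17) and RKF1 had 0.28 (95% interval -0.14 to 0.70), with a median of 0.28 over these 3 genes. Outside the list, the LRR kinase AT1G53440, named after its values were seen, was called with 1.198 (SE 0.29). Of 10 wall-associated kinases, which bind pectin, WAKL4 alone was called (10%, against 3.95% of all genes), at 1.41 (SE 0.38). The list median was 0.33. Of 5 NADPH oxidase genes 2 were called (median 0.22), RBOHA with 1.43 (SE 0.32) and RBOHD, the main oxidase of immune bursts, with 0.89 (SE 0.22), and RBOH F and RHD2 had 0.22 (95% interval -0.09 to 0.53) and 0.17 (95% interval -0.19 to 0.53).

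In calcium signalling, CML42, a calmodulin-like protein, averaged 1312 with CT and 1224 in water in HO, against 3226 with CT and 1175 in water in SWT, with a difference of 1.36 (SE 0.17, adjusted p 2.37e-12 by the z test). TCH3 had a larger and less certain difference of 3.15 (SE 0.74), and 3 of 12 calmodulin-like genes were called in all (median 0.16). Of 28 calcium channels, pumps and exchangers (median 0.075) 4 were more positive in SWT, among them the cyclic nucleotide-gated channels CNGC10 with 1.78 (SE 0.38) and CNGC13 with 1.60 (SE 0.40), and 1 was more negative, the vacuolar exchanger CAX1, which averaged 692 with CT and 715 in water in HO, against 337 with CT and 729 in water in SWT, with a difference of -1.07 (SE 0.28). Of 15 calcium-dependent kinases CPK1 and CDPK1 were called, with 0.74 (SE 0.18) and 0.84 (SE 0.24), 12 of the others had intervals within -1 to 1, and the median was 0.19. In the MAP kinase cascade 4 of 18 were called (median 0.31): MKP1, a phosphatase, with 0.54 (SE 0.12), MKK2 with 0.76 (SE 0.16), PP2C5, a phosphatase, with 2.61 (SE 0.64), and MAPKKK5 with 0.69. MPK6, a central kinase of the cascade, had 0.37 (95% interval 0.08 to 0.65).

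WRKY30 and WRKY40 encode WRKY factors of stress responses. WRKY30 averaged 20.7 with CT and 13.4 in water in HO, against 186 with CT and 18.9 in water in SWT, with a difference of 2.66 (SE 0.58, adjusted p 3.22e-04 by the z test). WRKY40 averaged 54.7 with CT and 55.1 in water in HO, against 606 with CT and 89.8 in water in SWT, with 2.76 (SE 0.62, adjusted p 5.22e-04 by the z test). In all, 7 of 30 stress WRKY genes were called (median 0.58), WRKY28 with the smallest p at 2.49 (SE 0.48). WRKY72 and WRKY11, more abundant, had 0.44 (95% interval 0.00 to 0.88) and 0.34 (95% interval -0.05 to 0.74). Among 16 ERF and CBF factors (median 0.82) ABR1 averaged 101 with CT and 115 in water in HO, against 1328 with CT and 139 in water in SWT, with a difference of 3.44 (SE 0.49), ERF6 had 1.33 (SE 0.29), and the others were not called. STZ was the only called gene of 8 ZAT and AZF factors (median 0.30), at 1.17 (SE 0.21). Of 9 NAC factors (median 0.32) 0 were called, against 3.95% of all genes, and NAC042 had 1.196 (95% interval 0.07 to 2.32). HSF4 alone of 11 heat shock genes (median 1.19) was called (9.09%, against 3.95% of all genes), at 1.32 (SE 0.25). HSP90.1 and HSP70 had larger differences of 2.78 (95% interval 0.48 to 5.07) and 2.21 (95% interval 0.20 to 4.23) without a call.

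Detoxification and export genes were divided. Of 27 glutathione S-transferases 7 were more positive in SWT (median 0.90), GSTF10 at the highest level of these 7, 16354 with CT and 16397 in water in HO, against 37022 with CT and 16336 in water in SWT, with a difference of 1.18 (SE 0.16, adjusted p 2.16e-11 by the z test). GSTF2 had 2.29 (SE 0.48) and GSTU12 3.47 (SE 0.94). Among 10 transporters of the PDR class (median 0.029), PEN3, which exports indole compounds at sites of attack, had 1.26 (SE 0.31), while ABCG37, an exporter of coumarins and auxin precursors, had -0.73 (SE 0.23), just inside the threshold. Of 11 callose and secretion genes 4 were more positive and 1 more negative (median 0.47): the secretory proteins SNAP33 with 1.03 (SE 0.20) and SYP122 with 0.91 (SE 0.25), PEN1 with 0.61, the callose synthase GSL05 with 0.90 (SE 0.24), and CALS1 with -0.84. Of 13 markers of pattern-triggered immunity 6 were called (median 1.14), led by PER4, a peroxidase, with 1.89 (SE 0.34), the kinase FRK1 with 1.87 (SE 0.37) and PROPEP3, the precursor of a danger peptide, with 2.45 (SE 0.54). Of 20 genes of sugar transport and sugar status (median 0.25), MSS1, a hexose transporter, alone was called, at 1.23 (SE 0.31). This share of 5% is near the 3.95% of all genes. The sucrose transporter SUC1 had 1.13 (SE 0.37) with an adjusted p of 0.052 by the z test.

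The 149 genes with a more negative SWT response included members of the list of iron genes. Of 27 genes of iron-deficiency regulation, iron uptake, distribution and storage, 5 were more negative and 2 more positive (median -0.36). AT3G13610, given above, was among the more positive. Because the list also holds storage genes such as FER1 and FER4, its median joins different functions. Nicotianamine synthases make a metal chelator, and NAS1 and NAS2 were called while NAS4 was not, with -1.23 (95% interval -2.63 to 0.18). NAS1 (AT5G04950, chromosome 5 from 1457641 to 1459039) averaged 2107 with CT and 2101 in water in HO, against 817 with CT and 2618 in water in SWT, with a difference of -1.68 (SE 0.27, adjusted p 9.91e-08 by the z test). NAS2 averaged 335 with CT and 299.6 in water in HO, against 199.5 with CT and 544 in water in SWT, with -1.61 (SE 0.26). In water NAS2 was already lower in HO, with HO minus SWT at -0.86 (SE 0.18, adjusted Wald p 0.0037). The transcription factors bHLH39 and BHLH100 had -1.70 and -2.54. IRT1, the main iron transporter, averaged 1974 with CT and 1877 in water in HO, against 1010.0 with CT and 3263 in water in SWT, and its difference of -1.76 (95% interval -3.14 to -0.39) was not called. HA2, the plasma membrane proton pump, had -0.12 (95% interval -0.53 to 0.29). In nitrate transport 1 of 16 genes was called (6.25%, near the 3.95% of all genes, median -0.28), NRT1.5, which loads nitrate into the xylem. It averaged 14775 with CT and 12465 in water in HO, against 3189.8 with CT and 12809 in water in SWT, with a difference of -2.25 (SE 0.41, adjusted p 5.54e-06 by the z test), and its exons overlap another gene on the other strand. NRT1.1 and NRT2:1 had -0.55 (95% interval -1.01 to -0.10) and -0.87 (95% interval -2.12 to 0.39). The ammonium transporter AMT1;2 averaged 3559 with CT and 3496 in water in HO, against 1618 with CT and 3237 in water in SWT, with -1.03 (SE 0.18).

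The other genes of smallest p in this direction were CYP71B26, AT5G65380 of the MATE efflux family, AT1G68710 of the E1-E2 ATPase family, AT5G19970 and AT2G29320. CYP71B26, AT3G26290 (chromosome 3 from 9632608 to 9634822), averaged 1083 with CT and 921 in water in HO, against 289 with CT and 1168 in water in SWT, with a difference of -2.25 (SE 0.32, adjusted p 1.02e-09 by the z test). AT5G65380 averaged 2529 with CT and 2494 in water in HO, against 970.2 with CT and 2713 in water in SWT, with -1.50 (SE 0.25). AT1G68710, AT5G19970 and AT2G29320 had differences of -1.04 (SE 0.19), -1.26 (SE 0.23) and -2.33 (SE 0.43). XTH31, a wall-remodelling enzyme, was the only called gene of 19 xyloglucan endotransglucosylases (5.26%, near the 3.95% of all genes, median -0.24), with -0.66 (SE 0.19). With the t distribution the 1 gene of this direction that passed was CYP71B26. Green-tissue markers were low in the same group of libraries, as given above for 11 genes with a median difference of -0.53.

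**Figure D4:**
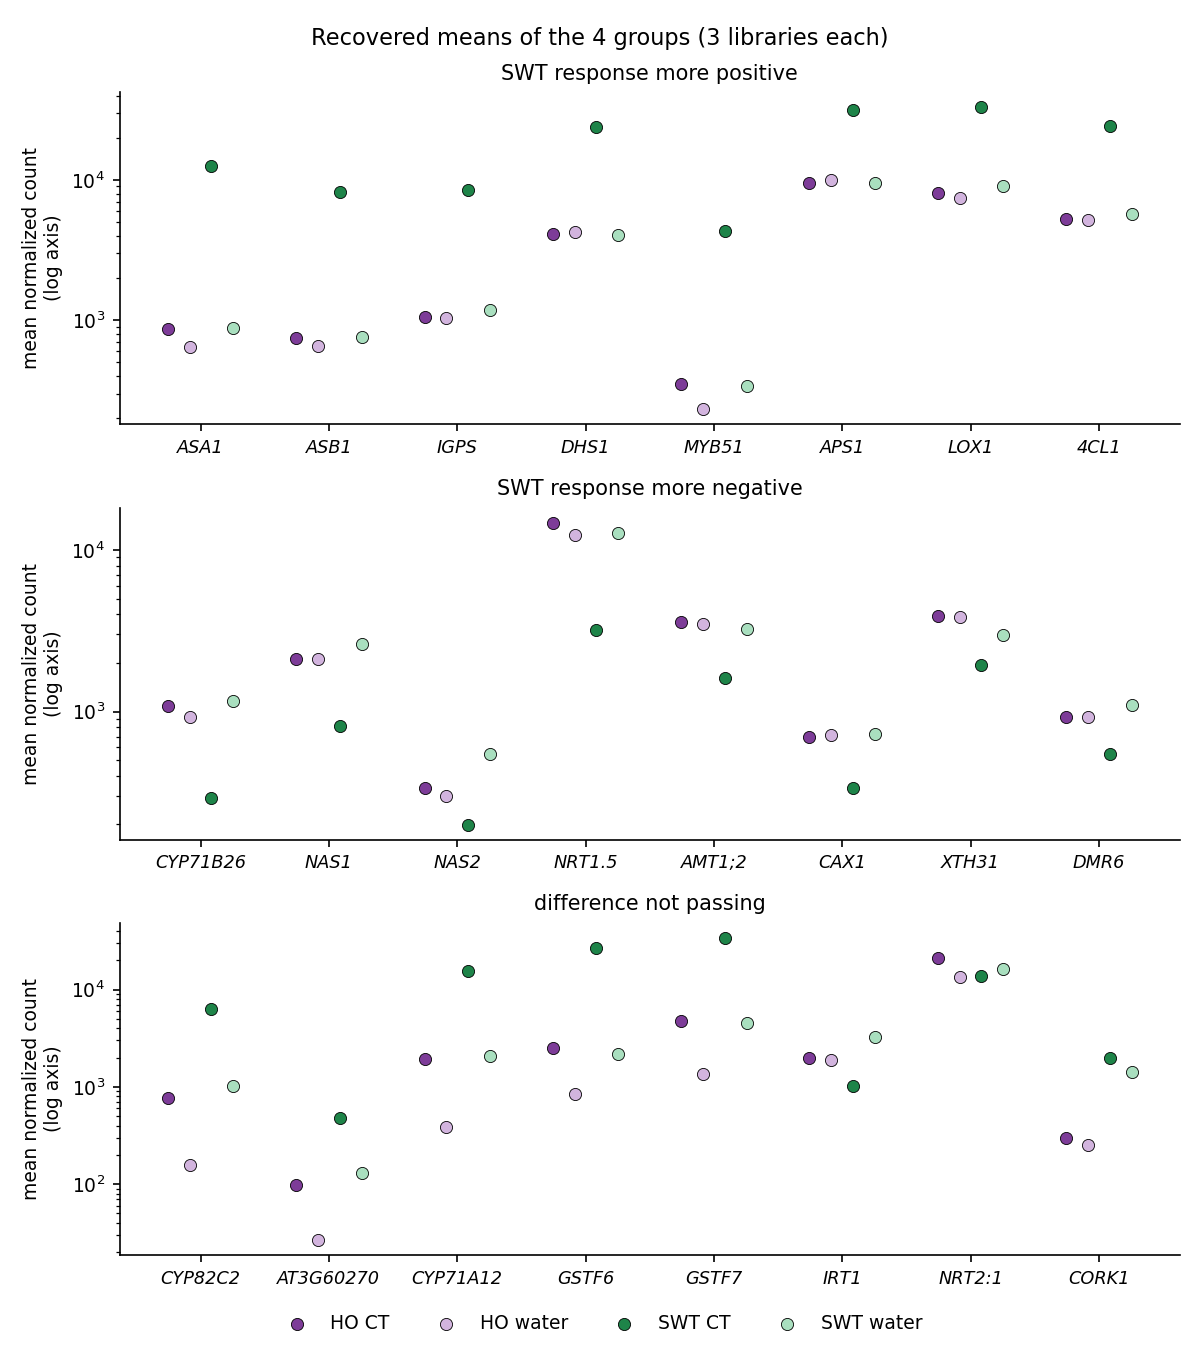
Recovered mean normalized counts (log axis) of the 4 groups for genes with a more positive SWT response (top), a more negative one (middle) and no called difference (bottom); points are group means over 3 libraries, for which the tables give no spread. In the top and middle panels SWT with CT is the highest (top) or the lowest (middle) of the 4 groups, while in the bottom panel HO with CT also lies above HO in water for CYP82C2, AT3G60270, CYP71A12, GSTF6 and GSTF7.

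Few genes passed a test of a response in each genotype. Genes called as changed in the same direction in each genotype (the larger of both Wald p-values, Benjamini-Hochberg adjusted below 0.05) numbered 2, with 144 at an unadjusted p below 0.05. CYP82C2 (AT4G31970, chromosome 4 from 15462350 to 15464563) encodes a cytochrome P450 of the 4-hydroxyindole-3-carbonyl nitrile pathway, a branch of tryptophan-derived defence. It averaged 773 with CT and 156 in water in HO, against 6256 with CT and 1016 in water in SWT, with responses of 2.31 (SE 0.47) in HO and 2.62 (SE 0.46) in SWT and a difference of 0.31 (95% interval -0.98 to 1.61). AT3G60270 (chromosome 3 from 22277797 to 22278837), a cupredoxin family gene, averaged 97.9 with CT and 26.6 in water in HO, against 474 with CT and 132 in water in SWT, with responses of 1.88 (SE 0.40) in HO and 1.85 (SE 0.36) in SWT and a difference of -0.03 (95% interval -1.08 to 1.02). In water the HO mean lay below the SWT mean for each, with HO minus SWT at -2.70 (SE 0.47) for CYP82C2 and -2.31 (SE 0.39) for AT3G60270, and the level HO reached with CT was below that of SWT in water. With the t distribution 0 genes passed as shared.

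Other genes of camalexin and carbonyl nitrile synthesis also had positive fold changes in HO. Of 7 genes 1 was called, the regulator WRKY33, with 0.66 (SE 0.20). The difference was positive for 6 of the 7 genes, while CYP71A13 had -0.87 and was not called. The list median was 1.60 for the HO response, 2.13 for the SWT response and -1.39 for HO minus SWT in water. CYP71A12, which makes indole-3-acetonitrile, averaged 1952 with CT and 390.4 in water in HO, against 15569 with CT and 2088 in water in SWT, with responses of 2.32 (SE 0.56) in HO and 2.898 (SE 0.56) in SWT and a difference of 0.58 (95% interval -0.99 to 2.14). PAD3, the last enzyme of camalexin synthesis, averaged 692 with CT and 319 in water in HO, against 2210.4 with CT and 597 in water in SWT, with a difference of 0.77 (95% interval -0.43 to 1.98). GSTF6 averaged 2539 with CT and 839.6 in water in HO, against 26845 with CT and 2204 in water in SWT and had 2.01 (95% interval 0.48 to 3.54), an interval that excludes 0 although the adjusted p was 0.162 by the z test. GSTF6 and GSTF7 had 10.3% and 10.0% of their 50-base windows elsewhere in the genome. The intervals of CYP71A12 and PAD3 included both equal responses and differences larger than a factor of 2.

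The pattern was searched for across all genes, a step chosen after seeing the data. Of the 615 genes called in SWT by the criteria of the study (an adjusted p below 0.05 together with a log2 fold change of 1.33 or more in size), 370 had a called difference and 245 did not. None of the 615 had a 95% interval of the difference within -1 to 1, so that no such response was shown to be alike within a factor of 2, and with limits of -2 and 2 the number was 99. For 129 of the 245 the interval of the difference excluded 0 and that of the HO response included 0, for 56 both included 0, for 18 both excluded 0, and for 42 the HO response excluded 0 while the difference did not. These 245 genes were measured less closely than the 370, with a median SE of the difference of 0.73 against 0.36 and a median mean count of 54.8 against 432.

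The 42 genes with an HO response that excluded 0 and a difference that did not had median responses of 1.88 in HO and 2.31 in SWT. Their shared direction follows from the choice of genes, since opposite responses of this kind would give a difference that excludes 0. In 41 of the 42 genes HO was lower than SWT in water, with a median of -1.86 on the log2 scale. Of the 42, 10 had an adjusted Wald p below 0.05 for that water difference. The level of HO with CT lay within a factor of 2 of SWT in water for 37. The water difference and the HO response share the HO water libraries, so that these values are not independent of each other. The 39 genes with called, partial responses had the same layout: all 39 were upregulated, 38 were lower in HO in water, the median responses were 0.64 in HO and 2.61 in SWT, and the median of HO with CT over SWT in water was -0.068 on the log2 scale. Of the 39, 3 had such a p in water. Among the 42, outside the named genes, were PXMT1 with 1.87 in HO and 1.79 in SWT, the calmodulin-binding regulator CBP60G with 1.52 in HO and 1.89 in SWT, and the cysteine-rich receptor kinases CRK18 with 1.45 in HO and 1.61 in SWT and CRK40 with 1.27 in HO and 1.90 in SWT, picked after their values were seen. Among the 39 were IGMT2, GSTU12, PLA2A, a lipid acyl hydrolase, and FLOT1, a flotillin. PLA2A averaged 597 with CT and 181 in water in HO, against 8731 with CT and 645 in water in SWT, with responses of 1.72 (SE 0.43) in HO and 3.76 (SE 0.43) in SWT.

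**Figure D5:**
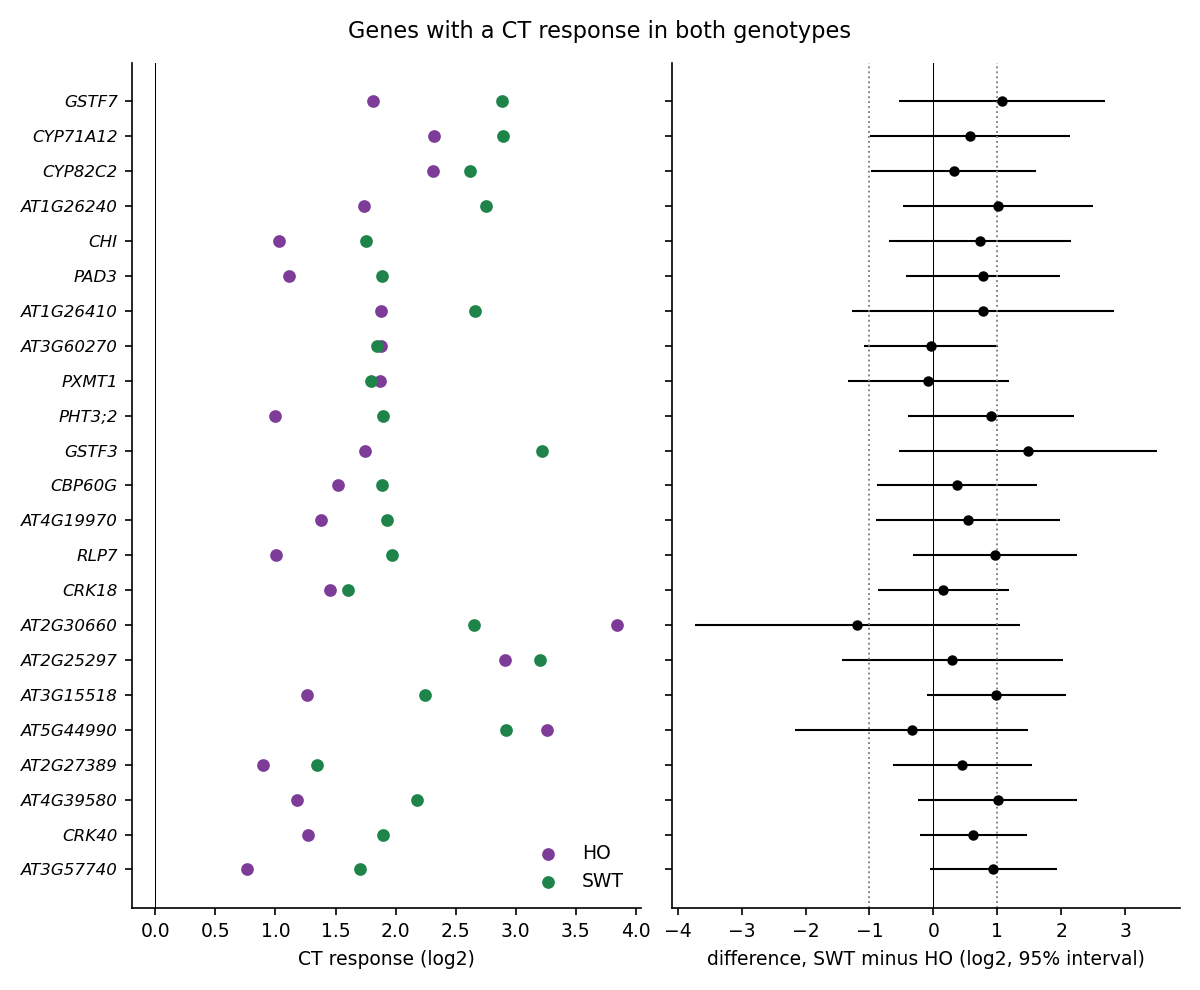
Left, CT responses (log2 fold change) in HO (purple) and SWT (green) for the 23 of 42 genes with a mean normalized count of at least 50 whose HO response excluded 0 and whose difference did not; right, the difference SWT minus HO (log2) with its 95% interval. All 23 responses are above 0 in both genotypes, and every interval includes 0 and reaches beyond at least 1 of the dotted lines at -1 and 1. A sign shared by both genotypes and intervals that include 0 follow from the choice of genes.

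Lists with no called difference varied in how closely they were measured. With 3.95% of all genes called, a lack of calls in a short list says little by itself. For 13230 of all genes (57.3%) the 95% interval of the difference lay within -1 to 1. This held for 13 of 14 cellulose synthases and their partners (median -0.095), with CESA1 at -0.18 (95% interval -0.55 to 0.18) and CEV1, also a synthase of the primary wall, at -0.15 (95% interval -0.49 to 0.18), and for all 11 reference genes (median 0.028), with UBQ10 at 0.30 (95% interval -0.05 to 0.65) and GAPC2 at -0.47 (95% interval -0.83 to -0.11). Of 15 circadian clock genes 9 had such intervals and 0 were called (median -0.14), and GI averaged 4874 with CT and 4998 in water in HO, against 4460.5 with CT and 4485 in water in SWT. Of 12 plasma-membrane aquaporins 8 had such intervals and 0 were called, although 6 had an adjusted Wald p below 0.05 in SWT, and the median difference was -0.18. PIP2B and PIP1A, abundant water channels, averaged 22261 with CT and 25382 in water in HO, against 12594 with CT and 20360.1 in water in SWT for PIP2B and 14862 with CT and 16804 in water in HO, against 8668 with CT and 14196 in water in SWT for PIP1A, with differences of -0.50 (95% interval -1.09 to 0.08) and -0.53 (95% interval -1.14 to 0.07). Of 16 expansins, which loosen walls, 0 were called and 6 had such intervals (median -0.075), with 0.26 (95% interval -0.34 to 0.86) for EXPA7 and -0.02 (95% interval -0.83 to 0.78) for EXPA4.

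Small responses cannot be sorted in this way. Without the fold criterion 2508 genes responded in SWT with an adjusted Wald p below 0.05, of which 895 had a called difference. A further 752 had no call and an interval within -1 to 1, 450 upregulated and 302 downregulated in SWT. Their median size of response was 0.45 in SWT, and the HO response in the SWT direction had a median of 0.060, with the same sign in 551 of 752. An interval within a factor of 2 therefore includes the complete loss of most of these responses.

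Of the 21 genes with opposite responses, BRG3, a RING-type ubiquitin ligase, had the smallest p. It averaged 398 with CT and 489.9 in water in HO, against 899 with CT and 513 in water in SWT, with responses of -0.30 (SE 0.13) in HO and 0.81 (SE 0.13) in SWT and a difference of 1.11 (SE 0.19, adjusted p 5.46e-07 by the z test). AT2G22930, a glycosyltransferase family gene, averaged 346 with CT and 441 in water in HO, against 589 with CT and 321 in water in SWT, with responses of -0.35 (SE 0.15) in HO and 0.88 (SE 0.15) in SWT. OST1, a kinase of abscisic acid signalling, averaged 421 with CT and 335 in water in HO, against 286 with CT and 413 in water in SWT and had responses of 0.33 (SE 0.16) in HO and -0.53 (SE 0.16) in SWT. AGL46, a MADS-box factor, had responses of 0.67 (SE 0.34) in HO and -1.201 (SE 0.34) in SWT. The HO response of the 10 genes of smallest p was at most 0.67 in size, except for AT5G40180, a gene with a mean count of 7.67. All 10 HO responses had an adjusted Wald p of 0.9999. Further down by p were larger responses of genes with few reads, named after their values were seen: CYP712A2 with 2.495 in HO and -2.38 in SWT at a mean of 6.63, AT3G30770 with -2.23 in HO and 2.05 in SWT at 6.7, FLA5 with -1.96 in HO and 1.54 in SWT at 7.63, AT5G38780 with 1.27 in HO and -1.48 in SWT at 21.9 and GSTF12 with -1.17 in HO and 0.94 in SWT at 31.3. Opposite responses numbered 13 among genes with a mean of at least 50, and 0 with the t distribution. The 5 genes with an unadjusted Wald p below 0.05 in HO only were AT1G35170, CYP96A8, AT1G16640, MSL5 and LLG2, which does not establish a response in HO. AT1G35170 and LLG2 had mean counts of only 4.96 and 3.14. MSL5, an ion channel gene and the highest of the 5, averaged 389.9 with CT and 271 in water in HO, against 216 with CT and 273 in water in SWT.

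Counted by annotated family, a grouping chosen after seeing the data, calls were found most often among chitinases, with 6 of 23 (26.1%, against 3.95% of all genes), cysteine-rich receptor kinases with 6 of 27 (22.2%), glutathione S-transferases with 8 of 41 (19.5%), WRKY factors with 9 of 63 (14.3%), LRR receptor kinases with 20 of 158 (12.7%) and class III peroxidases with 7 of 58 (12.1%), in each of these families with SWT the more positive. Cytochrome P450 genes went both ways, with 9 more positive and 8 more negative of 170. Of 320 ribosomal protein genes and 249 pentatricopeptide repeat genes 0 were called, with medians of -0.18 and -0.14. Photosystem and light-harvesting genes had 3 of 41 called, all more negative, and a median of -0.43. These families were read from product names, and members share sequence to differing degrees. Of the 913 genes, 190 had exons that overlap an annotated gene on the other strand, 169 of the 764 (22.1%) and 21 of the 149 (14.1%). Among all tested nuclear genes the share was 25.9%. Counts of such genes are uncertain, since the sources used here do not say whether counting used strand. Among the genes described by the naming rule, those with such exons are ASB1, IGPS, LOX1, ASA1, AT4G01700, NRT1.5, EMB1144, PYK10, WRKY33, 4CL1, JAZ12, EDS5, NPR1, WRKY40, ABR1, NAC042, FRK1, TCH3, CDPK1, RBOHA, MPK6, GSTF10, GSTF2, CEV1, CESA1, EXPA7, SNAP33, RWP1 and AT3G13610. Besides the genes noted above, 50-base windows found elsewhere made up 14.7% of PIP2B, 8.86% of NRT2:1, 8.77% of UBQ10, 7.11% of CYP82C2, 4.07% of WRKY40 and 3.66% of TCH3, and smaller shares of other genes, CYP71A12 among them.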

How the data were processed

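Poly-A RNA of 12 libraries was sequenced. The authors aligned reads to TAIR10 with STAR 2.7.10a, counted them with featureCounts 2.0.1 and fitted them with DESeq2 1.34.0. They deposited 3 tables, with 0 columns per library. The deposited signal is a mean normalized count, the deposited log2 values are fold changes and their SEs, the deposited score is the Wald statistic, and the deposited p-values are raw or Benjamini-Hochberg adjusted. The rule of this comparison needs these fitted columns, so they were used. The 4 group means were solved from the mean count and the 3 fold changes of a gene. Depth per library is unknown, and intervals of shares cover counting error only. Computations used Python 3.11.15 and scipy 1.17.1. Members and the 42 lists (603 of 670 entries measured, 53 names not resolved, 14 not in the tables) were chosen with earlier results of these data known. Named genes are the 10 called ones of smallest p in each direction at a mean of at least 50, the 10 opposite ones of smallest p, up to 10 shared or alike ones, the 3 of smallest p per list with up to 2 abundant uncalled or SWT-called ones, CORK1, WRKY30 and WRKY40. Other genes named were picked after their values were seen. Alternatives are given in the closing section.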

Additional observations from a re-analysis of the deposited data

Results flagged for a closer look

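The CT responses of 913 genes differed between SWT and HO by the z test, and 21 of these had responses of opposite sign in the genotypes, each with an unadjusted Wald p below 0.05. For the 10 of smallest p the difference, SWT minus HO, was 1.11 for BRG3, 1.22 for AT2G22930, 0.93 for AT3G56880, 0.72 for AT3G09000, -0.83 for AT1G49310, -1.87 for AGL46, 6.21 for AT5G40180, -0.86 for OST1, -0.91 for AT1G70100 and -1.21 for AT2G15128. AT5G40180 had recovered means of 0.354 with CT and 2.71 in water in HO, against 25 with CT and 2.59 in water in SWT, so its fitted difference rests on very few reads. With a t distribution on 8 degrees of freedom none of these 10 differences passed.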

How the results depend on the processing

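The count of 913 called differences was 929 with each response centred on its median, 913 with only genes of a mean of at least 50 and 915 with only genes whose 4 group means were all at least 5, and 903, 869 and 891 of those genes were among the 913. It was 89 with the t distribution (88 more positive in SWT, 1 more negative), 586 with the statistics divided by their robust spread of 1.13 (512 and 74), 578 at an adjusted p below 0.01 (505 and 73), 357 with the difference itself at least 1.33 (323 and 34) and 69 with the difference tested against 1 (68 and 1). Shared responses numbered 0 with the t distribution and at 0.01, and 7 with each genotype's statistics divided by their robust spread, which was 0.77 in HO and 1.45 in SWT. Genes with an interval inside the limits numbered 99 with limits of -2 and 2, and 851 without the fold criterion in SWT, an alternative chosen after seeing the data. Of the 851, 752 had no called difference and 99 had one, so that an interval inside the limits does not exclude a difference. Called genes were not set apart with limits of -2 and 2 either. Opposite responses numbered 0 with the t distribution, 13 with a mean of at least 50, 8 at 0.01, 9 with the fold criterion and 0 with the difference tested against 1. The fold criterion and the test against 1 were not applied to shared or alike genes, nor the 0.01 threshold to alike genes. Of 96 named genes with a call, 29 kept it and 67 lost it under at least 1 of 5 alternatives that keep the 0.05 threshold, all 67 of them with the t distribution. Apart from centring, which shifts all differences by the same amount, the alternatives leave the difference itself unchanged. The signs of the differences were therefore not tested by them. No paired analysis was possible because the tables hold no values per library, and leaving out a replicate was not run for the same reason. The p-values measure the spread between these libraries, since nothing in the labels says that they came from separate cultures, and low counts limit what can be seen, as the SEs by level show.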
